A study of Homo sapiens with 7 samples.

Results

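The genes described here are 33 targets and regulators of p53, chosen by symbol and followed in SKOV3, a human ovarian carcinoma line that is widely described as lacking functional p53. Of the 33, 29 were measured by a transcript cluster that the platform annotation assigns to exactly 1 gene symbol, out of 17958 genes measured in this way. Each of the 29 had a single such cluster, and no member was removed for a low signal. BTG2, FDXR, PLK3 and TP63 had no such cluster and were not analysed here. The p53 deficiency of the line is background and was not checked on these arrays.

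The samples were 7 SKOV3 lines infected with lentivirus and grown under puromycin, and their RNA was read on Affymetrix Human Gene 1.1 ST arrays, with many probes along each transcript. The 3 arrays labelled CtBP1 knockdown and the 2 arrays of CtBP2 knockdown were set against 2 arrays of scramble control, and every array shares the SKOV3 background and the infection. Per the labels the samples are single clones, so a difference between clones of 1 line and an effect of knockdown cannot be told apart, and knockdown was checked by western blot. Whether clones were cultured separately is not given in the sources used here, nor is a hairpin sequence, and the p-values therefore describe the spread among these arrays, part of which may be technical. The cell line label is SKOV3 throughout, although the source names carry other numbers after SKOV. In bulk RNA, fewer cells of a kind and less RNA per cell cannot be told apart. Values are the deposited log2 signals made with RMA, in which a difference of 1 is a doubling, and the number of arrays limits the precision.

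p53 is a stress-activated transcription factor. It raises MDM2, which in turn marks p53 for destruction, and it raises inhibitors of the cell cycle, death receptors, repair enzymes and metabolic regulators. Many of these genes also answer to other inputs. GADD45A, PLK2, GDF15, TNFRSF10B and SESN2, for example, respond to endoplasmic reticulum stress, amino acid shortage, growth factors or the p53 relatives p63 and p73 in cells without p53. CtBP1 and CtBP2 are co-repressors that DNA-binding proteins recruit to promoters. In mouse fibroblasts lacking both proteins, pro-apoptotic genes including Perp were reported to be derepressed. The comparison asks whether p53 target genes differ when either protein is knocked down in a line without p53.

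The RefSeq promoter windows of GRCh38.p14, which run from 250 bases before to 50 bases after a transcript start, were available for 21 of the 29 genes, in 33 windows. The p53 half-site motif, read on both strands, occurred in 4 of these windows, 1 each of AEN, FAS, PLK2 and SESN1, or 12.1%, against 6.63% of all 35116 windows in the table. The sequence CACCTG, an E-box bound by ZEB proteins that recruit CtBP, occurred on either strand in 6 windows of 4 genes, or 18.2%, against 20.6% of all windows. The letters of CACCTG do not occur in the 2 windows printed here. They do occur in both other FAS windows, which lack the p53 half-site motif. The FAS window printed was picked because it holds the p53 half-site motif. A motif match is a match of letters, not a measured binding site. The windows of PLK2 and FAS are shown because these genes recur below, PLK2 as the member with the widest range over the arrays and FAS as 1 of the 2 members with a small p for the CtBP2 knockdown. Capitals mark the p53 half-site motif and all sequences run 5′ to 3′ on the gene's strand. The PLK2 window is chr5:58460037-58460336 on the minus strand and the FAS window, 1 of 3 for that gene, is chr10:88991181-88991480 on the plus strand.
PLK2: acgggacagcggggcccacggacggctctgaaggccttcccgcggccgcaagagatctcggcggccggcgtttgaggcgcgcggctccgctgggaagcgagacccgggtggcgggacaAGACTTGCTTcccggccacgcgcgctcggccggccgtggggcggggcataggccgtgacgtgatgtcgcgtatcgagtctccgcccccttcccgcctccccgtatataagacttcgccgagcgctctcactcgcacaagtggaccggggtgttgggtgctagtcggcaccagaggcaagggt
FAS: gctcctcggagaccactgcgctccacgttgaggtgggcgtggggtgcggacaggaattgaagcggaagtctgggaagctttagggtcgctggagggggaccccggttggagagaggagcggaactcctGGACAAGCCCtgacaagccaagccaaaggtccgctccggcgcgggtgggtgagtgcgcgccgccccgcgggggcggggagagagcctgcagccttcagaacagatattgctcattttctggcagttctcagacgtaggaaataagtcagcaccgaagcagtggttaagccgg

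The targeted genes were read first as a check of the labels. The brighter CTBP2 cluster had log2 signals of 4.64 and 4.22 in CtBP2 knockdown, against 5.70 and 6.14 in scramble control. On it both CtBP2 knockdown clones lay below every other array. The dimmer CTBP2 cluster had 3.52 and 3.43 in CtBP2 knockdown, against 3.40 and 3.70 in scramble control, and did not separate the groups. CTBP1 had 5.11, 6.13 and 6.13 on arrays labelled CtBP1 knockdown, against 5.69 and 6.37 in scramble control. Only array 1 of the 3 lay below both controls, so the signal does not bear out the label, and the wording "labelled CtBP1 knockdown" is kept for that reason. The scramble controls differed from each other more than other replicates did. Across genes, which are not independent replicates, scramble control 1 had correlations of 0.926 to 0.941 with the rest, and the remaining 6 arrays of 0.971 to 0.993 among themselves. The sum of 11 SKOV3 and epithelial markers was 64.5 to 67.6 on arrays labelled CtBP1 knockdown, 66.7 to 70.8 in CtBP2 knockdown and 61.1 to 65.3 in scramble control. By mean level the list ran from WT1, at 1.92 to 2.21, to ERBB2, the amplified receptor gene of SKOV3, at 8.52 to 9.58. The identity of the line was not tested. The sum of 7 leukocyte markers was 17.1 to 18.6 on arrays labelled CtBP1 knockdown, 17.5 to 17.7 in CtBP2 knockdown and 18.0 to 19.6 in scramble control, with PTPRC between 1.5 and 1.73 and CD68, the brightest of the list, between 5.90 and 7.11. The sum of 9 fibroblast and endothelial markers was 17.5 to 19.1, 17.7 to 17.9 and 17.6 to 20.7 in the same groups. No marker is at 0 on this scale, and the part of other cells in the results was not tested.

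The p53 target genes as a set lay close to their control levels. For the arrays labelled CtBP1 knockdown the median log2 difference of the 29 genes from scramble was -0.03, beside -0.01 over all genes tested, and 13 members (44.8%) were above 0, beside 49.1% of all genes. For the CtBP2 knockdown the median was 0.08, beside -0.02 over all genes, and 19 members (65.5%) were above 0, beside 47.3% of all genes. That median turned to -0.091 after renewed quantile normalization, and it was 0.013 without scramble control 1 and 0.222 without scramble control 2. Between the knockdowns 12 members (41.4%) were above 0, beside 53.2%. The fitted difference was within 0.5 log2 units of 0 for 24 of the 29 in each comparison with scramble, but not for the same genes. The share of all genes within 0.5 was not counted, so this count cannot be set against genes in general. PLK2, POLH and GDF15 lay outside in both comparisons with scramble, MDM4 and HIPK2 on the arrays labelled CtBP1 knockdown, and GADD45A and PERP for CtBP2 knockdown. The 2 comparisons share their controls. The genes inside include some with wide intervals, so the data do not show that they were unaffected. No member passed the test in any comparison (limma, adjusted p under 0.05 over all genes), where 0 of 17958 genes passed for the arrays labelled CtBP1 knockdown (0%), 1 for CtBP2 knockdown (0.00557%) and 0 for the direct comparison of the knockdowns (0%). The 1 gene called, RNU4-1, a spliceosomal RNA gene, is no member and is named because its value was seen. At an unadjusted p under 0.05 the members numbered 4 of 29 for the arrays labelled CtBP1 knockdown (13.8%), against 4.79% (861 genes) over all genes. HIPK2, MDM4 and TNFRSF10A were the 3 higher ones, against a background of 2.87%, and TNFRSF10B the lower one, against 1.92%. That count of 4 was 1 with array weights, where 1.41% of all genes had such a p. The members numbered 2 for CtBP2 knockdown (6.9%), against 10.2% (1827 genes). Both, GADD45A and FAS, were higher, against 7.19%, and 0 were lower, against 2.98%. In the direct comparison they numbered 2 (6.9%), against 7.77% (1395 genes), with HIPK2 higher in the arrays labelled CtBP1 knockdown, against 2.46%, and GADD45A lower, against 5.31%.

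**Figure D1:**
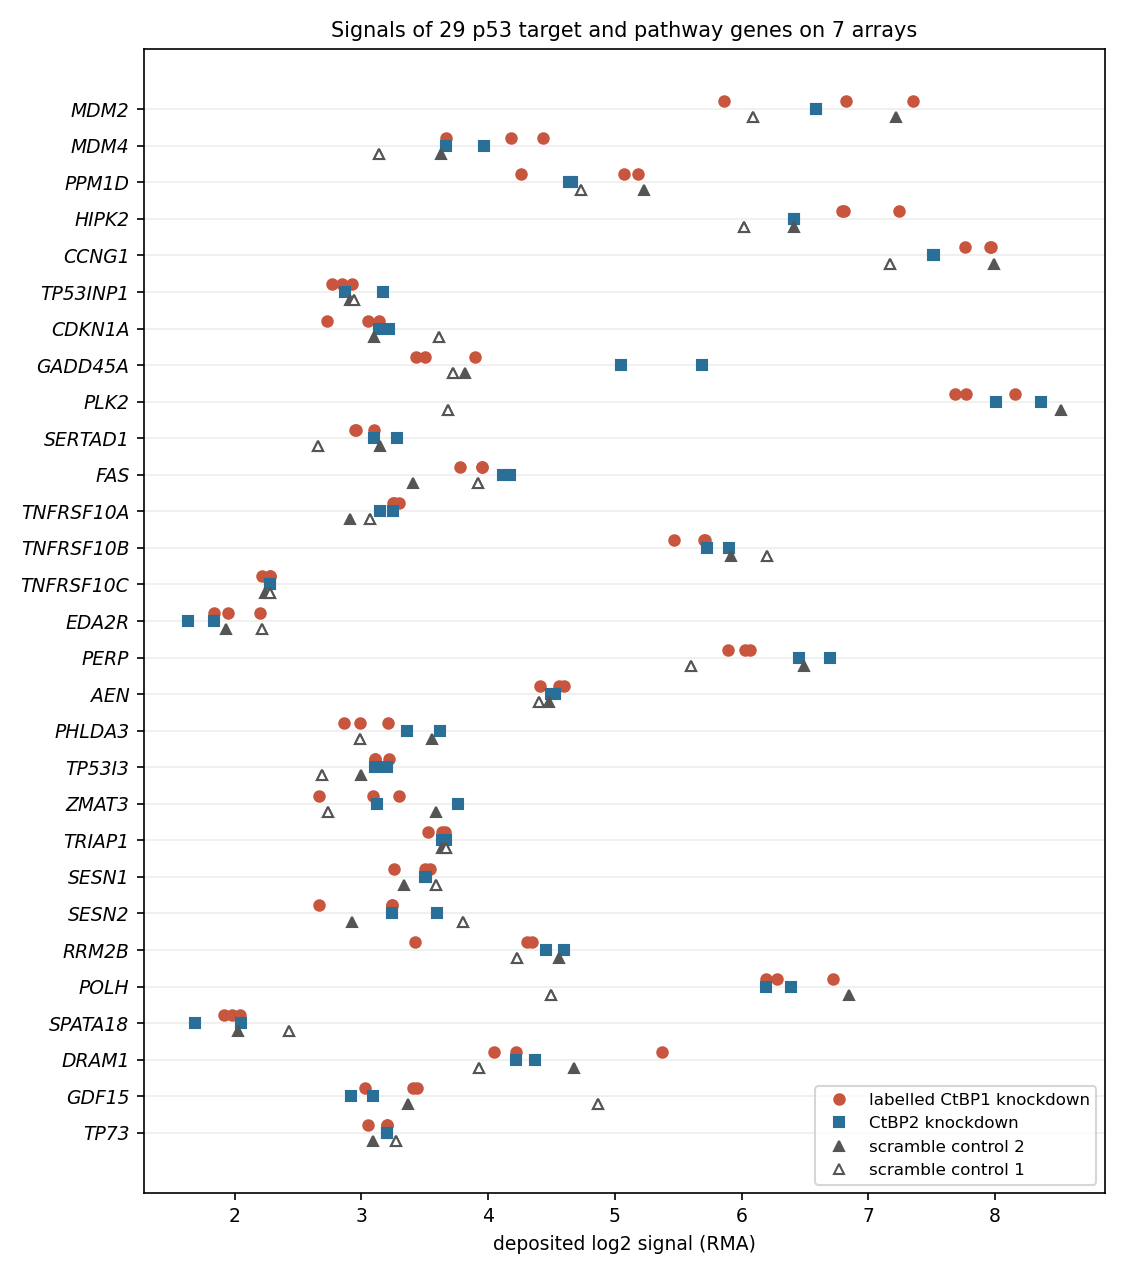
Deposited log2 signal (x axis) of the 29 measured genes (rows, ordered by role) on each of the 7 arrays: circles, arrays labelled CtBP1 knockdown; squares, CtBP2 knockdown; triangles, scramble, with scramble control 1 open. GADD45A separates the 2 CtBP2 knockdown arrays from all others, and PLK2 and POLH are lowest on scramble control 1. Levels of different rows come from different probes and are not comparable.

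**Figure D2:**
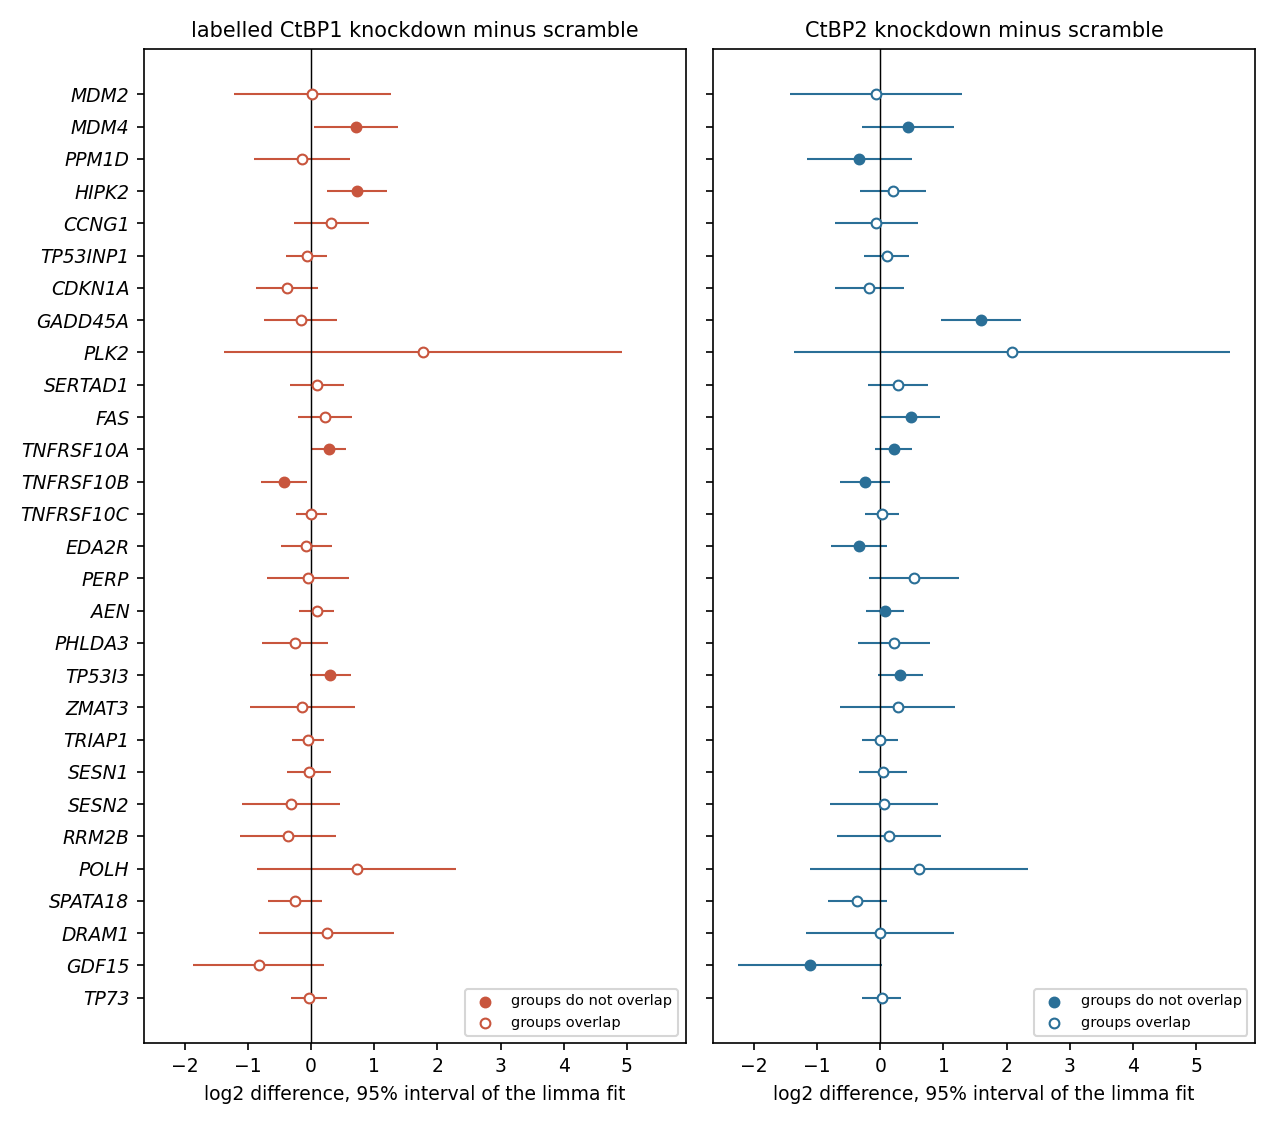
Fitted log2 difference from scramble (x axis) of the 29 genes with its 95% interval from limma, for the arrays labelled CtBP1 knockdown (left) and CtBP2 knockdown (right). Filled points are genes whose groups do not overlap, 5 on the left and 10 on the right. No gene shown passed an adjusted p of 0.05.

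GADD45A, which encodes a small stress protein that acts on CDK1, PCNA and MAP kinase signalling, was the member that differed most clearly. It had log2 signals of 5.69 and 5.05 in CtBP2 knockdown and of 3.43, 3.90 and 3.50 on arrays labelled CtBP1 knockdown, against 3.72 and 3.82 in scramble control. Both CtBP2 knockdown arrays thus lay above all 5 others, and the scramble and CtBP1-labelled arrays overlapped. The log2 difference of CtBP2 knockdown from scramble was 1.60 ± 0.26 (standard error, 2 arrays against 2, limma), or 3.03-fold, with a 95% interval of 0.96 to 2.24 and an adjusted p of 0.221. By its p GADD45A ranked 68th of 17958 genes in that comparison. Against CtBP2 knockdown, the arrays labelled CtBP1 knockdown differed by -1.76 ± 0.24, with an adjusted p of 0.17 (limma). The control that stood apart had little bearing on its size: the difference of CtBP2 knockdown from scramble was 1.55 without scramble control 1 and 1.65 without scramble control 2. It was 1.28 without CtBP2 knockdown array 1 and 1.92 without array 2. Over 18 alternatives its adjusted p ran from 0.0309, the only one past the threshold and found without scramble control 2, to 0.93.

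For the other 3 measured genes of cell cycle arrest the knockdown and scramble groups overlapped. CDKN1A, which encodes p21, the inhibitor through which p53 halts the cycle, had 3.05, 2.73 and 3.14 on arrays labelled CtBP1 knockdown, 3.22 and 3.14 in CtBP2 knockdown, and 3.61 and 3.10 in scramble control. Its groups overlapped in every comparison. The difference from scramble was -0.38 ± 0.20 for the arrays labelled CtBP1 knockdown and -0.17 ± 0.22 for CtBP2 knockdown, at adjusted p of 0.734 and 0.735 (limma). With scramble control 1 left out these differences became -0.13 and 0.08, and with scramble control 2 left out -0.64 and -0.43, so the sign of the second followed the control kept. SERTAD1, which encodes a CDK4-binding regulator of E2F activity, ran from 2.66 on scramble control 1 to 3.28 on CtBP2 knockdown array 1.

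PLK2, a polo-like kinase induced by stress and growth signals, had the widest range of the 29 genes. It had 8.16, 7.68 and 7.77 on arrays labelled CtBP1 knockdown, 8.01 and 8.36 in CtBP2 knockdown, and 3.68 and 8.52 in scramble control. Scramble control 1 alone was low, 4.84 log2 units or 28.6-fold below scramble control 2, while the other 6 arrays lay within 0.84 of each other. On the same array 22 cell cycle genes that p21 represses through the DREAM complex were read as well. As a deviation from the gene's own 7-array mean, their median was 0.01 to 0.26 on arrays labelled CtBP1 knockdown, 0.37 and 0.44 in CtBP2 knockdown, and -1.79 and 0.54 in scramble control. The lowest and the highest median thus both fell in the controls, and none of the 22 passed the test. CDKN1A was highest on scramble control 1, but such extremes were common on that array. It held the highest value of 31.5% of all genes and the lowest of 32.4%. Of the 29 members, 10 were highest and 10 lowest there. A tied extreme was counted for scramble control 1, as the first array. Whether the CDKN1A, PLK2 and cell cycle gene values are related was not tested.

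**Figure D3:**
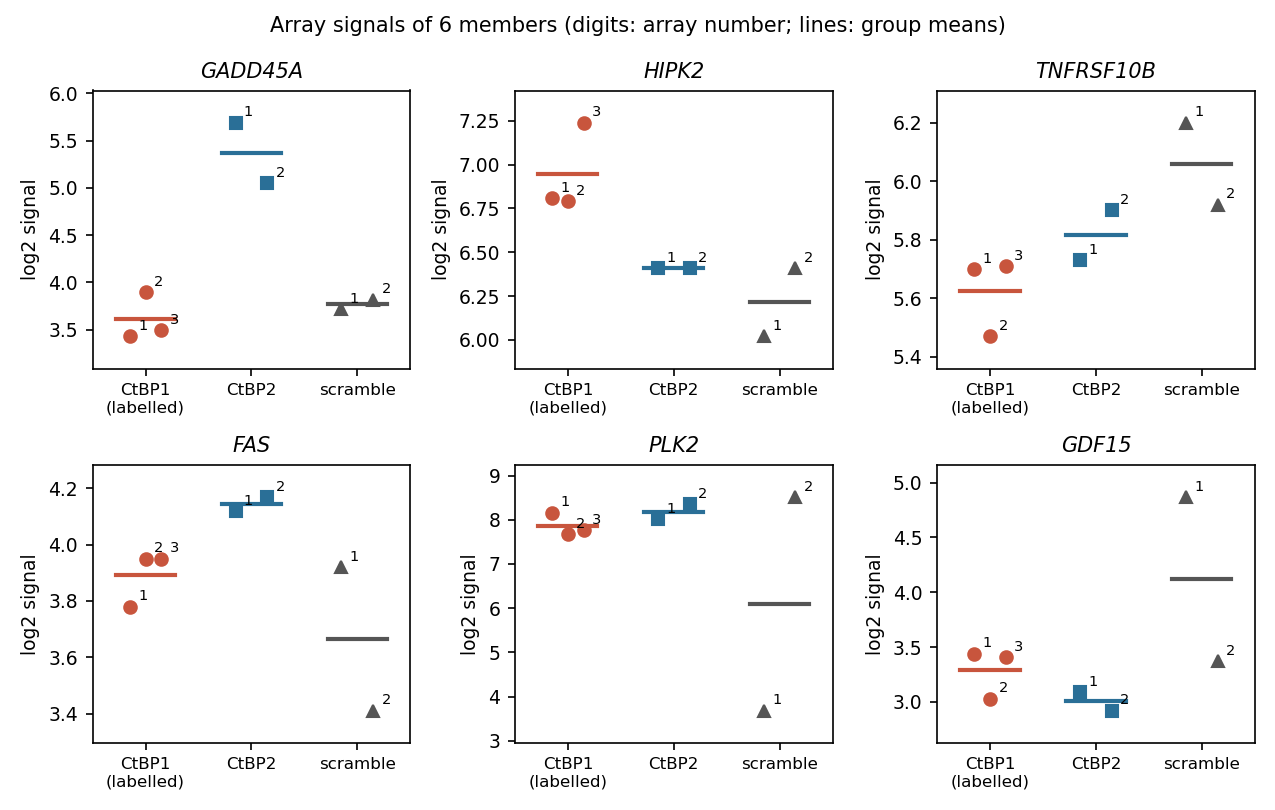
Log2 signal of GADD45A, HIPK2, TNFRSF10B, FAS, PLK2 and GDF15 on each array (points, numbered by array) with the group mean (line); each panel has its own axis. GADD45A is high on the 2 CtBP2 knockdown arrays, HIPK2 on the 3 arrays labelled CtBP1 knockdown, and PLK2 and GDF15 are set apart by scramble control 1.

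Among the genes that feed back on p53, HIPK2 and MDM4 were higher on the arrays labelled CtBP1 knockdown. HIPK2 is a kinase that phosphorylates p53 and is also known to phosphorylate CtBP and so promote its loss. It had 6.81, 6.79 and 7.24 on these arrays and 6.41 on both CtBP2 knockdown arrays, against 6.02 and 6.41 in scramble control. All 3 arrays labelled CtBP1 knockdown lay above the other 4, whereas scramble control 2 and both CtBP2 knockdown arrays held an identical value. The difference from scramble was 0.73 ± 0.20, or 1.66-fold, at an adjusted p of 0.734 (limma). From CtBP2 knockdown the arrays labelled CtBP1 knockdown differed by 0.53 ± 0.20, at an adjusted p of 0.583. The difference from scramble was 0.53 without scramble control 1, and 0.93 with an adjusted p of 0.0447 without scramble control 2; over its alternatives the adjusted p ran from 0.0447 to 1.

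MDM4, a relative of MDM2 that binds p53 and blocks its activity, had 4.18, 3.67 and 4.43 on arrays labelled CtBP1 knockdown and 3.97 and 3.67 in CtBP2 knockdown, against 3.14 and 3.63 in scramble control. Both knockdown groups lay above both controls, with 1 array of each knockdown only slightly above scramble control 2. The difference from scramble was 0.71 ± 0.27 on arrays labelled CtBP1 knockdown and 0.43 ± 0.30 for CtBP2 knockdown, at adjusted p of 0.734 and 0.561 (limma). Without scramble control 1 the 2 differences were 0.47 and 0.19.

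MDM2, the ubiquitin ligase of p53 and the classic p53 target, varied among the arrays labelled CtBP1 knockdown as much as over the series. It had 7.35, 5.86 and 6.82 on arrays labelled CtBP1 knockdown, 6.59 and 6.59 in CtBP2 knockdown, and 6.09 and 7.22 in scramble control. The lowest and the highest value of the series both fell on arrays labelled CtBP1 knockdown. The differences from scramble were 0.02 ± 0.51 and -0.07 ± 0.55, at adjusted p of 0.994 and 0.963 (limma), with a 95% interval for CtBP2 knockdown of -1.43 to 1.29. Their sign followed the control kept. Without scramble control 1 they were -0.55 and -0.63, and without scramble control 2 they were 0.58 and 0.50.

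For the remaining regulators the arrays labelled CtBP1 knockdown overlapped scramble control. PPM1D, the phosphatase that switches off p53 signalling, spanned 4.26 to 5.18 on those arrays and had 4.66 and 4.64 in CtBP2 knockdown, against 4.73 and 5.23 in scramble control. CCNG1, a cyclin that works with MDM2, had 7.96, 7.76 and 7.97 on arrays labelled CtBP1 knockdown, against 7.51 and 7.52 in CtBP2 knockdown, and the scramble arrays at 7.17 and 7.99 lay on both sides. The difference between the knockdowns was 0.38 ± 0.24, at an adjusted p of 0.857 (limma). TP53INP1, a p53 cofactor with a role in autophagy, stayed between 2.77 and 3.17 on all arrays. TP73, the p53 relative that was measured, stayed between 3.05 and 3.27.

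No death receptor passed the test, and the median difference of the 5 from scramble was 0.00 on arrays labelled CtBP1 knockdown and 0.02 for CtBP2 knockdown. TNFRSF10B, the TRAIL receptor DR5, had 5.70, 5.47 and 5.71 on arrays labelled CtBP1 knockdown, 5.73 and 5.90 in CtBP2 knockdown, and 6.20 and 5.92 in scramble control. Both knockdown groups were below both controls, CtBP2 knockdown array 2 only slightly so. The differences from scramble were -0.43 ± 0.15 and -0.24 ± 0.16, at adjusted p of 0.734 and 0.558 (limma), and between the knockdowns -0.19 ± 0.15. For CtBP2 knockdown the difference was -0.10 without scramble control 1, -0.39 without scramble control 2 and -0.54 after renewed quantile normalization, which also moved that between the knockdowns to -0.099. TNFRSF10A, the TRAIL receptor DR4, was higher in both knockdown groups. It had 3.25, 3.26 and 3.30 on arrays labelled CtBP1 knockdown, 3.15 and 3.25 in CtBP2 knockdown, and 3.07 and 2.91 in scramble control. Its differences from scramble were 0.28 ± 0.11 and 0.21 ± 0.12, at adjusted p of 0.734 and 0.539, the second falling to 0.12 without scramble control 2. The decoy receptor TNFRSF10C had only 3 distinct values over the 7 arrays, from 2.22 to 2.28.

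FAS, the receptor of FAS ligand, had 4.12 and 4.17 in CtBP2 knockdown and 3.78, 3.95 and 3.95 on arrays labelled CtBP1 knockdown, against 3.92 and 3.41 in scramble control. The arrays labelled CtBP1 knockdown lay below both CtBP2 knockdown arrays and overlapped the controls. The difference of CtBP2 knockdown from scramble was 0.48 ± 0.19, or 1.39-fold, at an adjusted p of 0.489 (limma). It was 0.73 without scramble control 1, 0.22 without scramble control 2, and at its lowest 0.18 under the other settings. Between the knockdowns FAS differed by -0.25 ± 0.17. EDA2R, an ectodysplasin receptor of the same family, had 1.63 and 1.84 in CtBP2 knockdown, against 2.22 and 1.93 in scramble control, a difference of -0.34 ± 0.18 at an adjusted p of 0.535. Leaving out scramble control 1 gave -0.19, and renewed quantile normalization gave -0.18. The mean signal of EDA2R was low, at percentile 18.8 of all genes, near the endothelial markers VWF at 16.8 and PECAM1 at 18.2.

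Of the 6 effectors of apoptosis and survival, TP53I3 was above both controls in both knockdown groups. TP53I3 encodes a quinone oxidoreductase. It had 3.11, 3.22 and 3.11 on arrays labelled CtBP1 knockdown, 3.20 and 3.11 in CtBP2 knockdown, and 2.69 and 3.00 in scramble control. The differences were 0.30 ± 0.13 and 0.31 ± 0.15, at adjusted p of 0.734 and 0.52 (limma). They were 0.15 and 0.16 without scramble control 1, and 0.46 and 0.47 without scramble control 2, at adjusted p of 0.0483 and 0.047. Over all alternatives these adjusted p ran up to 1 and 0.93.

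PERP, a membrane protein of desmosomes that takes part in p53-dependent death, separated the knockdowns from each other but not from scramble. It had 6.03, 6.07 and 5.89 on arrays labelled CtBP1 knockdown, against 6.45 and 6.70 in CtBP2 knockdown, and the scramble arrays had 5.60 and 6.49. The difference between the knockdowns was -0.58 ± 0.27, at an adjusted p of 0.715 (limma). PHLDA3, which restrains AKT, had 2.99, 2.86 and 3.21 on arrays labelled CtBP1 knockdown, against 3.62 and 3.36 in CtBP2 knockdown, a difference of -0.48 ± 0.21 at an adjusted p of 0.703. The scramble arrays had 2.99 and 3.56 and overlapped both groups.

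AEN, an apoptosis-enhancing nuclease, spanned only 4.40 to 4.60, with both CtBP2 knockdown arrays (4.53 and 4.5) just above both controls (4.40 and 4.48). TRIAP1, an inhibitor of apoptosis, spanned 3.53 to 3.67. ZMAT3, an RNA-binding protein, ran from 2.67 on an array labelled CtBP1 knockdown to 3.76 on a CtBP2 knockdown array, with the scramble arrays at 2.74 and 3.59.

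Of the 7 genes of metabolism, repair and mitochondria, POLH and GDF15 differed by more than 1 log2 unit between the controls. POLH, the translesion DNA polymerase eta, had 6.72, 6.19 and 6.28 on arrays labelled CtBP1 knockdown, 6.19 and 6.39 in CtBP2 knockdown, and 4.5 and 6.85 in scramble control. As for PLK2, scramble control 1 alone was low, by 2.35 log2 units or 5.1-fold against scramble control 2. RRM2B, the p53-inducible subunit of ribonucleotide reductase, had 4.35, 3.42 and 4.31 on arrays labelled CtBP1 knockdown, against 4.60 and 4.46 in CtBP2 knockdown, and the scramble arrays had 4.23 and 4.56. The difference between the knockdowns was -0.51 ± 0.31, at an adjusted p of 0.837 (limma), and -0.20 without array 2 of those labelled CtBP1 knockdown.

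GDF15, a secreted stress cytokine, was high and not low on scramble control 1. It had 3.44, 3.03 and 3.41 on arrays labelled CtBP1 knockdown, 3.09 and 2.92 in CtBP2 knockdown, and 4.87 and 3.37 in scramble control. Scramble control 1 was 2.83-fold above scramble control 2, and the CtBP2 knockdown arrays lay below both. The difference of CtBP2 knockdown from scramble was -1.11 ± 0.47, at an adjusted p of 0.495 (limma). It shrank to -0.36 without scramble control 1 and was -1.87, at an adjusted p of 0.0112, without scramble control 2. The adjusted p reached 0.93 in the alternatives.

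SESN2, a leucine sensor that restrains mTORC1, was also highest on scramble control 1. It had 3.24, 2.67 and 3.24 on arrays labelled CtBP1 knockdown, 3.60 and 3.24 in CtBP2 knockdown, and 3.80 and 2.93 in scramble control. The stress transcription factor DDIT3 had 4.55, 4.66 and 4.71 on arrays labelled CtBP1 knockdown, 4.66 and 4.76 in CtBP2 knockdown, and 7.11 and 5.38 in scramble control. The list of 15 integrated stress response genes it belongs to had a median deviation of 0.45 on scramble control 1 and of -0.41 to 0.09 on the other 6 arrays. Its median difference from scramble was -0.60 on arrays labelled CtBP1 knockdown, with all 15 below 0, and -0.34 for CtBP2 knockdown, with 6 of 15 above 0. At an unadjusted p under 0.05, 5 were lower on arrays labelled CtBP1 knockdown, beside 1.92% of all genes, and for CtBP2 knockdown 3 were lower and 1 higher, beside 2.98% and 7.19%. No gene of that list passed the test. Its part in the GDF15, SESN2 and TNFRSF10B values was not tested.

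Among the last members, SESN1, the relative of SESN2 induced by p53, spanned 3.26 to 3.59, and SPATA18, which takes part in mitochondrial quality control, spanned 1.69 to 2.43 with its highest value on scramble control 1. DRAM1, a lysosomal protein of autophagy, had 5.37 on array 1 of those labelled CtBP1 knockdown and 3.93 to 4.68 on all others.

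How far the controls set the sign was counted for all 29 genes. With the arrays labelled CtBP1 knockdown, 16 of 29 differences took opposite signs depending on which control was kept. With the CtBP2 knockdown this held for 13 of 29. The same count was not made over all genes, so these counts do not set the members apart from genes in general. Between the 2 scramble arrays the median absolute difference of the members was 0.49, beside 0.38 over all genes, and 4 members (PLK2, POLH, GDF15 and MDM2) differed by more than 1, or 13.8%, beside 15.9% of all genes. Between pairs of arrays labelled CtBP1 knockdown the median was 0.14 to 0.23, beside 0.17 to 0.18 over all genes. Up to 2 members differed by more than 1 there, beside 2.49% to 3.96% of all genes. Between the 2 CtBP2 knockdown arrays the median was 0.15, beside 0.12 over all genes. No member differed by more than 1 there, beside 0.434% of all genes. Without scramble control 2, and so with scramble control 1 as the lone control assumed to vary like the other groups, 6 members passed the test in each comparison, against 18.2% and 22% of all genes. These were PLK2, POLH, GDF15, CCNG1, HIPK2 and TP53I3 on the arrays labelled CtBP1 knockdown, and PLK2, GDF15, POLH, PERP, GADD45A and TP53I3 for CtBP2 knockdown. Without scramble control 1 none did.

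**Figure D4:**
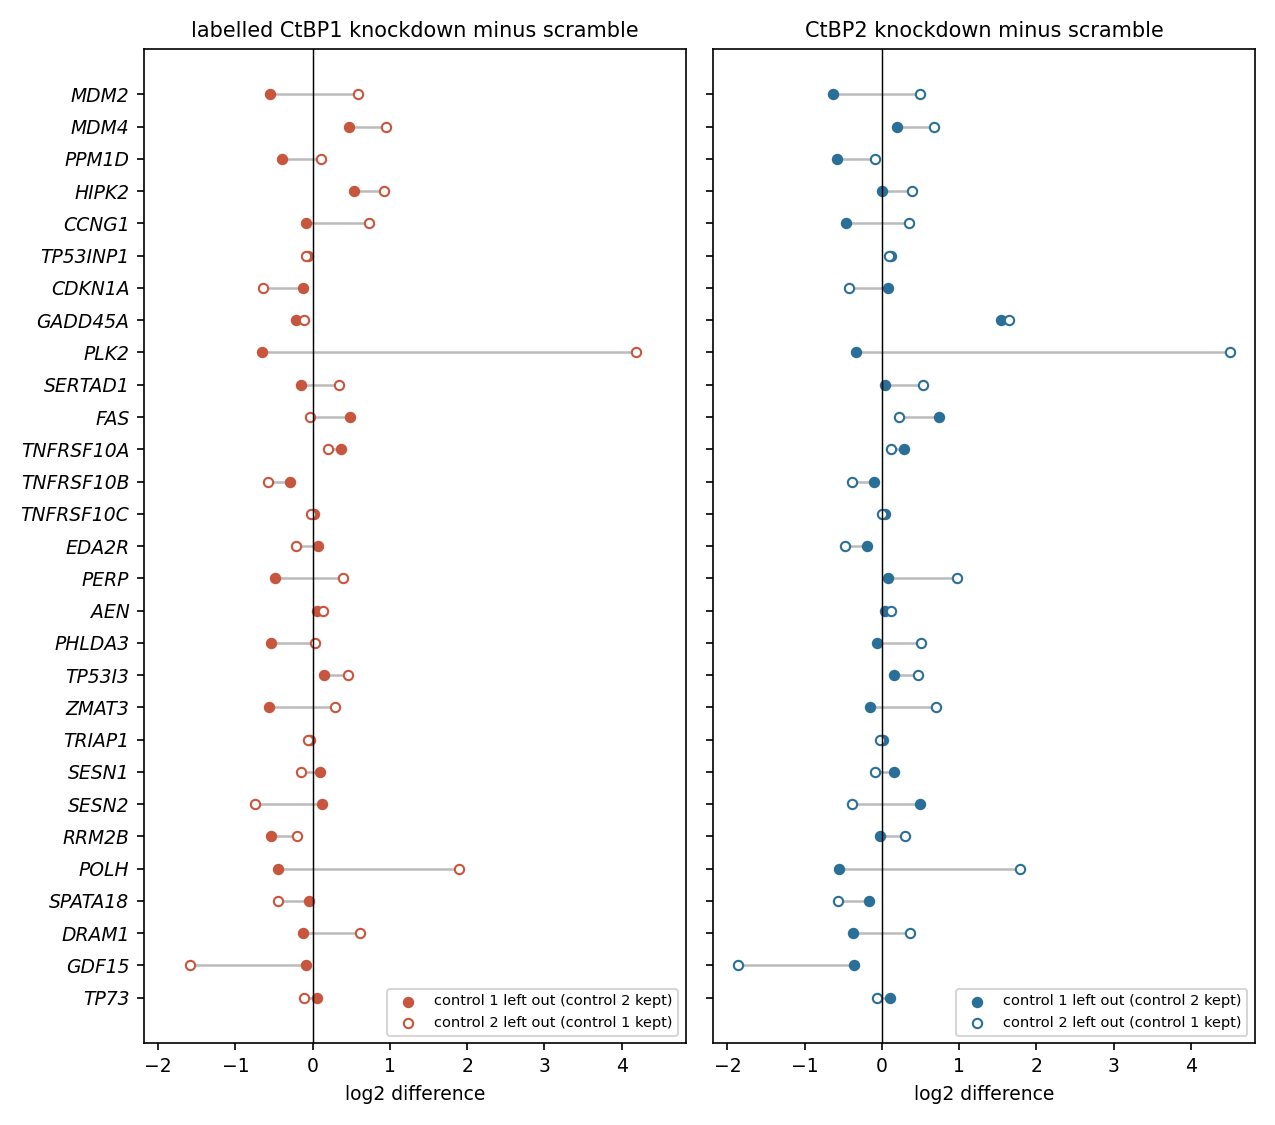
Log2 difference from scramble (x axis) of the 29 genes when scramble control 1 is left out (filled) and when scramble control 2 is left out (open), for the arrays labelled CtBP1 knockdown (left) and CtBP2 knockdown (right). The 2 points of PLK2, POLH and GDF15 lie far apart, while those of GADD45A nearly coincide in both panels.

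Groups separated for members about as often as for genes in general. For the arrays labelled CtBP1 knockdown, groups did not overlap for 5 of 29 members (17.2%), against 14.4% of all genes, with 4 higher (background 6.76%) and 1 lower (7.59%). For CtBP2 knockdown they did not overlap for 10 (34.5%), against 41.0%, with 6 higher (19.3%) and 4 lower (21.7%). Between the knockdowns they did not overlap for 8 (27.6%), against 32.0%, with 2 higher (16.2%) and 6 lower (15.8%). Over all 7 arrays 12 members spanned 1 log2 unit or more, beside 32.5% of all genes. With scramble control 1 set aside, 5 of 29 members did so, beside 15.8% of all genes.

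A second list of 34 p53 targets outside the 33, of which 33 were measured, was also counted. On the arrays labelled CtBP1 knockdown 2 were higher and 2 lower at an unadjusted p under 0.05, beside 2.87% and 1.92% of all genes, with a median difference of -0.01. For CtBP2 knockdown 4 were higher and 0 lower, beside 7.19% and 2.98%, with a median of 0.05. None passed the test. Without overlap of the groups, 6 were higher and 4 lower on the arrays labelled CtBP1 knockdown, beside 6.76% and 7.59% of all genes. For CtBP2 knockdown 10 were higher and 4 lower in that way, beside 19.3% and 21.7%. BAX, which opens the outer mitochondrial membrane in apoptosis, had 5.0, 5.58 and 5.26 on arrays labelled CtBP1 knockdown, 5.55 and 5.33 in CtBP2 knockdown, and 4.46 and 4.84 in scramble control. All 5 knockdown arrays were above both controls, by 0.63 ± 0.22 and 0.79 ± 0.24, at adjusted p of 0.734 and 0.396 (limma). FUCA1, a lysosomal fucosidase, had 4.59 and 3.50 in CtBP2 knockdown and 3.71, 3.02 and 3.31 on arrays labelled CtBP1 knockdown, against 2.43 and 2.76 in scramble control. Both knockdown groups lay above both controls, and CtBP2 knockdown array 1 stood well above array 2. The difference of CtBP2 knockdown from scramble was 1.45 ± 0.40 at an adjusted p of 0.375 (limma). LIF, a cytokine of the interleukin-6 family, had 3.84, 4.23 and 4.51 on arrays labelled CtBP1 knockdown and 3.96 and 3.91 in CtBP2 knockdown, against 3.47 and 3.13 in scramble control. Both knockdown groups again lay above both controls. The difference of the arrays labelled CtBP1 knockdown was 0.90 ± 0.22 at an adjusted p of 0.734 (limma). The decoy receptor TNFRSF10D differed there by -0.55 ± 0.18, the direction of TNFRSF10B. Between the knockdowns 1 of the 33 had an unadjusted p under 0.05, beside 7.77% of all genes.

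Of 14 genes that act on p53, 13 were measured, and none passed. At an unadjusted p under 0.05 there were 0 for the arrays labelled CtBP1 knockdown, beside 4.79% of all genes, and 1 for CtBP2 knockdown, beside 10.2%. This was PPP1R13L, which encodes the inhibitory p53-binding protein iASPP. It differed from scramble by 0.41 ± 0.16, at an adjusted p of 0.489 (limma).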

How the data were processed

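Signals of 7 arrays were used. Per the submitters' processing notes, the deposited log2 values were made by the authors with Affymetrix Expression Console and RMA, with no version; RMA in general corrects background, equalises distributions across arrays and summarises probes, which can shrink real shifts shared by many genes. The annotation and genome build behind them are not given in the sources used here. Of 33297 clusters, 19181 had 1 symbol, updated through Entrez identifiers, and the brightest per gene over 7 arrays was kept, with no filter. limma 3.58.1 in R 4.3.3 was fitted to 17958 genes with 3 group means (4 residual degrees of freedom); p-values are two-sided and Benjamini-Hochberg adjusted over all genes, and ± is the SE of the fit. The members, role groups and lists were chosen with earlier results of these data known. Differences are printed, per comparison, for up to 8 members with the smallest p among those whose groups do not overlap, and for MDM2 and CDKN1A; from each other list up to 3 genes with the smallest p are named per comparison. PTPRC, the defining leukocyte marker, and CD68 are named outside that rule, CD68 after its values were seen. The fit was tested on simulated data. A true log2 difference of 0.5 was recovered there for 0% to 2% of genes over the comparisons, and one of 1 for 20% to 40%. One of 2 was recovered for 52% to 70% and one of 3 for 80% to 90%. Differences of all these sizes can thus go uncalled. Alternatives covered normalization, dim genes, several clusters, variance models, the arrays fitted, weights, ties, a replicate block and each array left out. An identical value on several arrays occurred for 40% of all genes and 13 of 29 members, which can understate their spread.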

Additional observations from a re-analysis of the deposited data

How the results depend on the processing

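Of the alternatives for counts and medians, 110 stayed close to the reported value and 52 moved; of those for single members, 445 kept direction and side of the threshold, 9 reversed and 6 newly passed it. The cause was not tested. On the arrays labelled CtBP1 knockdown the members with an unadjusted p under 0.05 numbered 2 under the stricter filter on dim genes, with a mean-variance trend or with only the groups compared, and 1 with array weights, the replicate block or no tied genes, against 4 reported. Leaving out arrays gave 2 to 12. Genes called there ran between 0 and 3262 when arrays were left out, the highest without scramble control 2. The members' median was -0.11 without tied genes. For CtBP2 knockdown, genes called numbered 0 with robust eBayes, with only the groups compared, with array weights and with the replicate block, and 0 to 3952 when arrays were left out. Members numbered 1 under the milder filter on dim genes and with only the groups compared, beside 10.8% and 6.2% of all genes. The count was also 1 when an array labelled CtBP1 knockdown was left out, beside 8.03% to 8.65%. The members' median was -0.091 after renewed quantile normalization, and 0.013 to 0.222 when arrays were left out. In the direct comparison, 7 genes were called after renewed quantile normalization and 272 with array weights. Members numbered 4 after quantile normalization, beside 9.13% of all genes. They numbered 6 with only the groups compared and with array weights, beside 14.2% and 17.5%. Under the stricter filter, with a trend, with the replicate block and without ties they numbered 1, beside 8.97%, 6.94%, 4.99% and 8.73%. Leaving out an array labelled CtBP1 knockdown gave 1 or 2, beside 5.89% to 7.2%. The members' median was -0.18 without ties. MDM2 reversed on the arrays labelled CtBP1 knockdown, to -0.17 after quantile normalization, -0.018 after centring and -0.054 with the replicate block. With arrays left out it spanned -0.55 to 0.59 there, -0.63 to 0.50 for CtBP2 knockdown and -0.25 to 0.50 between the knockdowns, and CDKN1A spanned -0.429 to 0.083 for CtBP2 knockdown. Same-numbered samples had deviation correlations of -0.354 to 0.0977. Deviations within a group of 2 arrays mirror each other, so these values cannot decide whether the numbers pair the samples. Detection over background was not analysed here, and the 2 controls, of which 1 stands apart, limit the precision.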
